A study of Mus musculus with 12 samples.

Results

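The comparison described here set macrophages homozygous for the D316Y form of COQ6 against wild-type (WT) macrophages after lipopolysaccharide (LPS), and used 6 of the 12 RNA sequencing libraries of the study. The 12 libraries form 4 groups of 3, WT and D316Y, each untreated or exposed to LPS. The members were chosen by their labels alone: D316Y with LPS, replicates 1 to 3, and WT with LPS, replicates 1 to 3. Both groups were mouse bone marrow-derived macrophages (BMDMs), cells grown from marrow over 6 days with 10% of the medium conditioned by L929 cells, a source of macrophage colony-stimulating factor, after lysis of red blood cells. Both received 100 ng/mL LPS for 24 h, so that the genotype at COQ6 is the one difference the labels name. D316Y stands for tyrosine in place of aspartate at that residue of the protein. The labels used here name no strain, sex or age of the mice. They do not say whether a replicate is a separate animal or culture, so p-values measure the spread between these libraries, which may be technical.

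COQ6 is a flavin-dependent monooxygenase of the inner mitochondrial membrane that hydroxylates the ring of coenzyme Q, the lipid that carries electrons from complexes I and II and from several other dehydrogenases to complex III. LPS is a lipid of Gram-negative bacterial cell walls; it is bound by the Toll-like receptor TLR4 and signals through MyD88 to NF-kB and inflammatory cytokines and through TRIF to interferon-beta and the interferon-stimulated genes. Macrophages exposed to LPS also change their metabolism: glycolysis increases, the tricarboxylic acid cycle is broken up, and itaconate and nitric oxide are made.

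The values were log2 counts-per-million (log2 CPM), and the reads behind them came to between 46.1 and 47.2 M in the WT libraries and between 35.3 and 42.6 M in the D316Y libraries. Of 12441 genes, 11306 were tested, those whose mean reached 0 log2 CPM in at least 1 genotype. The share of mitochondrially encoded reads was 0.658%, 1.08% and 0.849% for WT replicates 1, 2 and 3, and 1.02% to 1.10% over the D316Y libraries. WT libraries differed more among themselves than D316Y libraries did: the median SD over genes was 0.23 in WT and 0.15 in D316Y on the log2 scale, and the SD was larger in WT for 66.5% of genes. The label of the cells was checked on their markers. All 25 macrophage identity genes were in the table, and 24 reached the level for testing. The lysozyme Lyz2 stood between 15.49 and 15.93 log2 CPM and the F4/80 antigen Adgre1 between 11.61 and 12.43. The receptor for macrophage colony-stimulating factor Csf1r stood between 10.37 and 11.39. Others were low: Mrc1 had 93 to 374 reads per library and Cd163 203 to 485. Timd4, with 4 to 35 reads, was not tested.

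After LPS the genotypes differed at few genes. With limma, a linear model per gene with moderated variances, 5 of 11306 genes passed at an adjusted p under 0.05, which is 0.0442% of the genes tested. Ifi208, an interferon-inducible gene, and Dhcr7, an enzyme of cholesterol synthesis, were higher in D316Y (2 genes, 0.0177%). Ide, which encodes insulin-degrading enzyme, Rab4a, which encodes a GTPase of endosomal recycling, and the noncoding RNA gene G530011O06Rik were lower (3 genes, 0.0265%). Without the trend and robust options in limma's moderation Ifi208 alone passed, with an adjusted p of 0.0703 for Ide, 0.0674 for Rab4a, 0.216 for Dhcr7 and 0.249 for G530011O06Rik. An unadjusted p under 0.05 was reached by 735 genes (6.5%), 392 of them higher in D316Y (3.47%) and 343 lower (3.03%). With no difference at any gene, a share of 0.05, the threshold itself, would reach it on average. The D316Y libraries lay wholly above the WT libraries at 5.7% of the genes and wholly below them at 6.79%, and 0.619% of the genes differed by at least 1 on the log2 scale.

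**Figure D1:**
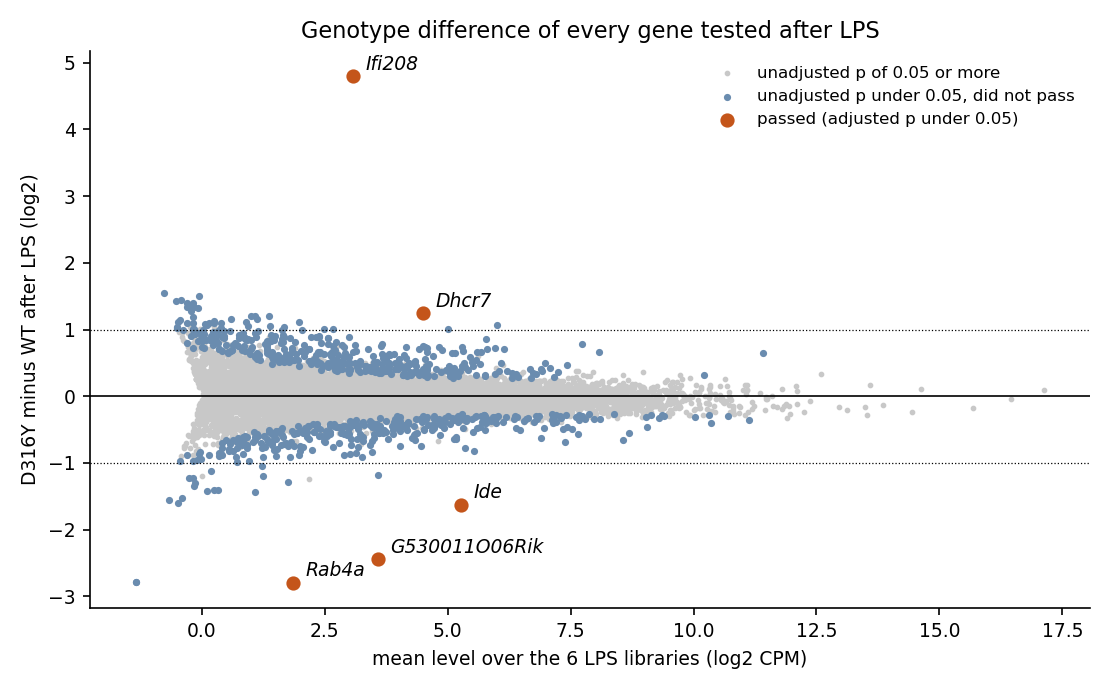
Difference between the genotypes after LPS for each of the 11306 genes tested (D316Y minus WT, log2) against the mean level over the 6 libraries (log2 CPM); orange points passed, blue points had an unadjusted p under 0.05 and did not pass, and dotted lines stand at a difference of 1 in either direction. Ifi208 at 4.80 lies apart from all other genes, and most other large differences are at low levels.

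Most genes were measured closely enough to bound the difference. The median standard error (SE) was 0.18 on the log2 scale. For 10123 genes (89.5%) the 95% interval of the difference lay within 1 of 0 on the log2 scale, which is 2-fold either way, and for 6515 (57.6%) it lay within 1.5-fold. Low genes were the least precise: the median SE was 0.29 in the 2549 genes with a mean under 2 log2 CPM, of which 56 differed by at least 1. It was 0.13 between 6 and 8 log2 CPM and 0.14 in the 574 genes with a mean of at least 8, of which 0 differed by that much. Over all genes the median difference was -0.0033, and 49.2% of the differences were positive.

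**Figure D2:**
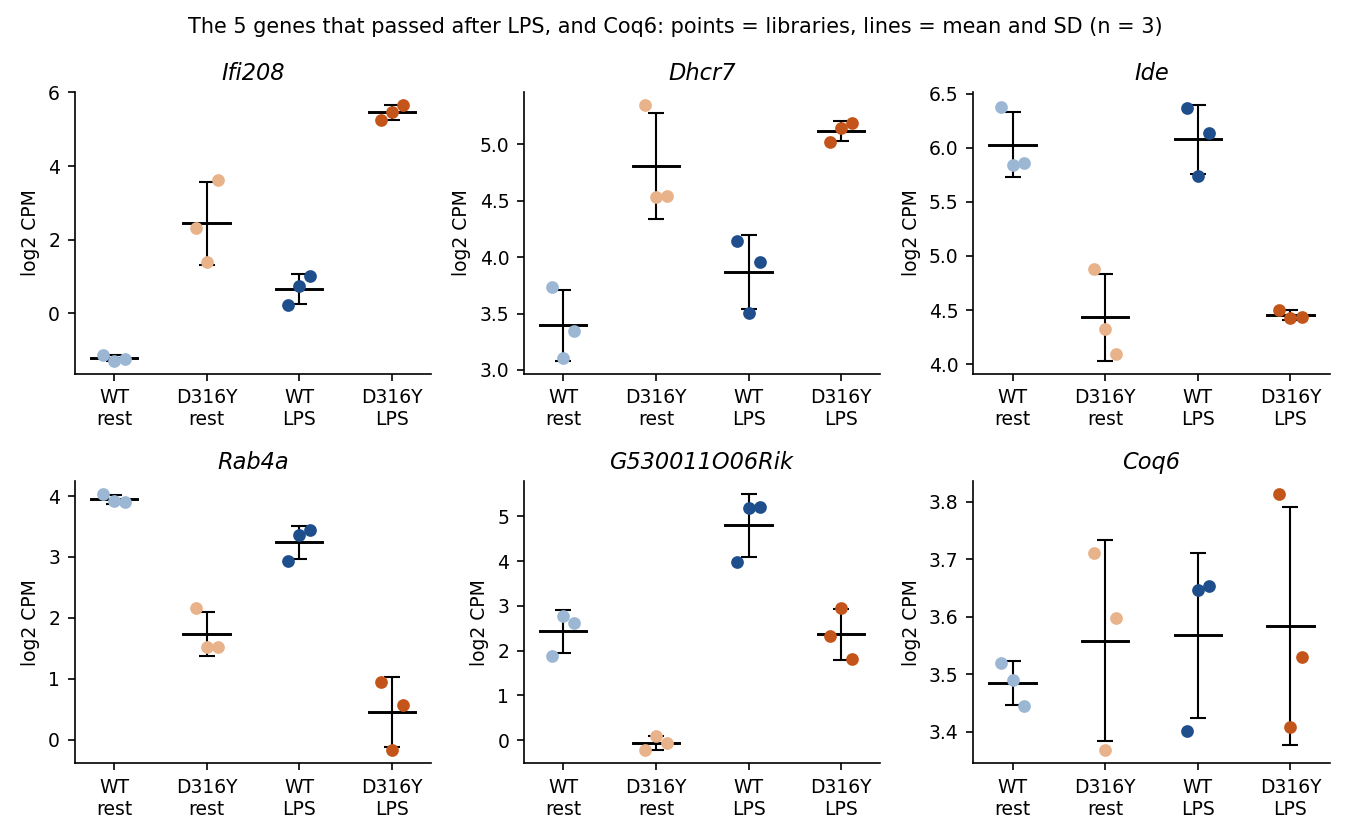
Level (log2 CPM) of the 5 genes that passed and of Coq6 in each library of the 4 groups; points are libraries, and lines are the group mean and SD (n = 3). In the 5 genes that passed, the WT and D316Y libraries with LPS do not overlap; in Coq6 they do.

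Ifi208 belongs to the Ifi200 family, a cluster of interferon-inducible genes on chromosome 1 whose products carry PYRIN and HIN domains and include sensors of cytosolic and nuclear DNA. It lies at chr1:173673675-173698395 on the plus strand (GRCm38, GENCODE M21). In the LPS libraries of WT it stood at 0.23, 0.74 and 1.02 log2 CPM, from 50, 63 and 83 reads. D316Y had 5.26, 5.47 and 5.66 log2 CPM, from 1395, 1671 and 1650 reads. All D316Y libraries were thus above all WT libraries by a gap many times the spread within either group. Ifi208 rose by 4.80 in D316Y (SE 0.21, 95% interval 4.33 to 5.27, limma adjusted p 5.61e-07). Ifi208 is also a gene of the LPS response: in WT, LPS raised it by 1.88 on the log2 scale (limma adjusted p 0.00276). Resting D316Y cells, at 2.44 ± 1.12 log2 CPM (SD, n = 3), were above LPS-treated WT cells, at 0.66 ± 0.40.

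The rest of the family did not share this difference. All 12 family members tested had positive values, and Ifi208 was the 1 that passed; the median was 0.18. The other 11 lay between 0.06 (Ifi204) and 0.25 (Ifi206), and in none of them were the groups apart. To set the upstream sequence of Ifi208 beside those of 4 relatives, the 40 bases around a match to the core of the interferon-stimulated response element are printed here 5′ to 3′ on the strand of each gene, with the match in capitals (RefSeq, GRCm38.p6). The core was searched on both strands as GAAA, any 2 bases, GAAA:
Ifi208: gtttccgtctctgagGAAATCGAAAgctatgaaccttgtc
Ifi213: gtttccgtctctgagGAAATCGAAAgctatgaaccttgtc
Ifi206: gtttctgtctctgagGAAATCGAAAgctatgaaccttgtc
Ifi214: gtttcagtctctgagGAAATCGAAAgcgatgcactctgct
Ifi203: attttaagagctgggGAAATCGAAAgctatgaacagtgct
The first is chr1:173673592-173673631 on the plus strand and the second chr1:173599321-173599360 on the minus strand. The match starts 58 bases before the start of Ifi208 and 73 before that of Ifi213. Over these 40 bases Ifi213 had the same letters as Ifi208 at all 40 positions, Ifi206 at 39, Ifi214 at 33 and Ifi203 at 28. No window left out was more alike than that of Ifi203. The match of Mndal on the same strand had 28, with the same letters as Ifi203, and that on the other strand 7. Ifi205 and Ifi211 had 26 and Ifi207 had 25. Yet Ifi213 had levels of 6.54, 6.84 and 6.88 log2 CPM in WT and 7.20, 7.17 and 6.57 in D316Y, a difference of 0.22 (SE 0.17) with overlapping libraries, and Ifi206 a difference of 0.25 (SE 0.18). Such a match stood in the 250 bases before the start in 9 of the 11 family genes with an entry, against 3.46% of all 27025 genes in the table (10 of 13 promoters against 2.98% of 32851). A match is a description, not a binding site or a cause. The 12 tested genes that start within 1 Mb of Ifi208 had differences between 0.06 and 0.38, and 0 of them had an unadjusted p under 0.05. How the authors' counting treated reads that match several family members is not stated.

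Dhcr7 encodes 7-dehydrocholesterol reductase, which reduces 7-dehydrocholesterol to cholesterol in the last step of one branch of the pathway. It lies at chr7:143823145-143848410 on the plus strand. WT libraries stood at 4.14, 3.50 and 3.96 log2 CPM (762, 431 and 639 reads) and D316Y libraries at 5.02, 5.14 and 5.19 (1182, 1334 and 1188 reads). The groups did not overlap, and D316Y libraries lay closer together than WT libraries. Dhcr7 rose by 1.25 on the log2 scale (SE 0.17, 95% interval 0.88 to 1.61, limma adjusted p 0.0239). The call did not hold with all 12 libraries in 1 fit (limma adjusted p 0.245) or without WT replicate 3 or any 1 of the D316Y replicates (adjusted p between 0.0913 and 0.303), while the difference stayed between 1.07 and 1.56 in the alternatives run. Of 14 tested genes within 1 Mb of Dhcr7, 2 had an unadjusted p under 0.05, against 6.5% of all genes, and 0 passed (limma). They were Cttn, which encodes the actin-binding protein cortactin (0.94, SE 0.39), and Nadsyn1, the neighbour that reads the other way from close to the Dhcr7 start (0.46, SE 0.21).

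Dhcr7 had the opposite sign to most genes of its pathway. Of 26 cholesterol synthesis genes tested, 24 had negative differences, beside 50.8% of all genes. At an unadjusted p under 0.05, 0 of them were lower (limma), beside 3.03% of all genes. Dhcr7 was the 1 member that passed, and the median was -0.17. By library, the median deviation from the gene means was 0.12, 0.02 and 0.05 for WT replicates 1, 2 and 3. For the D316Y replicates it was -0.32, -0.01 and 0.05. Without D316Y replicate 1 the median difference was -0.10. Lss, lanosterol synthase, had -0.29 (SE 0.17) and did not pass. Dhcr7 has 3 starts in the RefSeq table, and the promoter of the start furthest downstream is shown because it carries the motifs most common in this pathway, with CCAAT and GGGCGG, on either strand, in capitals (chr7:143829964-143830213, plus strand, GRCm38.p6):
Dhcr7: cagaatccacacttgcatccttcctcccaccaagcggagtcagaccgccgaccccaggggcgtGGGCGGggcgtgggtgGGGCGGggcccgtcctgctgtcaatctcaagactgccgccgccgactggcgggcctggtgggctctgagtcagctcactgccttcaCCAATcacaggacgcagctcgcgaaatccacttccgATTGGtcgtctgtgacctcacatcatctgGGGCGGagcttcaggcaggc
It holds 2 matches to CCAAT and 3 to GGGCGG. Among the pathway's promoters, 17 of 23 held CCAAT and 19 of 23 held GGGCGG, against 33.9% and 32.7% of all promoters. The sterol regulatory element core, searched as TCAC, any base, CCAC, was matched in 1 of the 23, that of Hmgcs1, and in none of the 3 of Dhcr7; all promoters held it in 1.05%. Which start is used in these cells was not tested.

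Ide encodes insulin-degrading enzyme, a zinc metalloprotease of the M16 family that cleaves insulin, amylin and amyloid-beta. It lies at chr19:37268743-37337852 on the minus strand. The WT libraries stood at 6.37, 5.74 and 6.14 log2 CPM (3553, 2028 and 2897 reads), and the D316Y libraries at 4.50, 4.42 and 4.44 (825, 810 and 707 reads). The D316Y values were nearly equal to each other and all below WT. Ide fell by 1.62 on the log2 scale (SE 0.16, 95% interval -1.97 to -1.28, limma adjusted p 0.00158), and was 3.08-fold lower. The change of Ide with LPS in WT was 0.05 (limma adjusted p 0.871). Among 11 members of a list of M16 metalloproteases and other proteases of insulin and amyloid, 9 had negative differences (median -0.14) and Ide was the 1 that passed. The mitochondrial protease Lonp1 had -0.60 (SE 0.24), with 3.98, 3.31 and 3.42 log2 CPM in WT and 2.44, 3.29 and 3.17 in D316Y (-0.40 with WT replicate 1 left out, -0.34 with D316Y replicate 1 left out). None of the 11 tested genes within 1 Mb of Ide had an unadjusted p under 0.05 (limma), and 0 passed.

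Rab4a encodes a small GTPase of early endosomes that returns internalised receptors to the cell surface. It lies at chr8:123805985-123835287 on the plus strand. It was read 329, 389 and 446 times in WT (2.93, 3.36 and 3.44 log2 CPM) and 70, 33 and 48 times in D316Y (0.95, -0.17 and 0.57 log2 CPM). The lowest WT library was thus well above the highest D316Y library. Rab4a fell by 2.79 (SE 0.29, 95% interval -3.42 to -2.17, limma adjusted p 0.00205), the largest fall among the genes that passed; without WT replicate 3 the adjusted p was 0.0535. Its paralog Rab4b had a difference of -0.07 (SE 0.17). Of 20 Rab GTPases and effectors of early and recycling endosomes, 14 had negative differences (median -0.09), and Rab4a was the 1 that passed. Rab35, a GTPase of a fast recycling route, came next at -0.64 (SE 0.20), with 3.33, 3.91 and 3.17 log2 CPM in WT against 2.85, 2.89 and 2.75 in D316Y, and at -0.42 without WT replicate 2. Of 25 tested genes within 1 Mb of Rab4a, 3 had an unadjusted p under 0.05, against 6.5% of all genes, and 0 passed.

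G530011O06Rik is a noncoding RNA gene at chrX:169975043-169978917, on the minus strand and inside the span of Mid1, which lies on the plus strand at chrX:169685199-170005736. RefSeq lists G530011O06Rik on the Y chromosome as well, so the region reaches the pseudoautosomal part that both sex chromosomes carry. The WT libraries held 684, 1383 and 1533 of its reads (3.99, 5.18 and 5.22 log2 CPM), and the D316Y libraries 182, 290 and 114 (2.33, 2.94 and 1.81). WT replicate 1 was the lowest of its group and still above every D316Y library. G530011O06Rik fell by 2.44 (SE 0.33, 95% interval -3.17 to -1.71, limma adjusted p 0.0239). In WT, LPS raised it by 2.37 (limma adjusted p 0.00015). The call was the least steady of the 5: the adjusted p was 0.077 with voom weights on the recovered reads, 0.0716 with quantile normalization, 0.16 with the mitochondrial share as a covariate and between 0.0913 and 0.308 without WT replicate 2 or 3 or D316Y replicate 1 or 3.

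Other genes of the same stretch had values of either sign, and none passed. Mid1, a ubiquitin ligase of microtubules, was read 39, 48 and 44 times in WT and 9, 13 and 17 times in D316Y, a difference of -1.55 (SE 0.40). On the Y chromosome, Gm21860 at chrY:90754513-90754821 had 22, 46 and 70 reads in WT against 4, 7 and 4, and Gm21748 at chrY:90838869-90839177 had 22, 46 and 71 against 4, 7 and 4. Both stood at -2.78 (SE 0.53, limma adjusted p 0.212). Their reads are nearly equal library by library, so the copies cannot be told apart and are not separate evidence. Mid1 and these copies were tested on their WT level alone, as their D316Y reads fell short of the level for testing. That filter favours a negative difference in such low genes, so their sign adds no support for G530011O06Rik. Strand of counting is not stated either, so reads of G530011O06Rik and Mid1 cannot be told apart where they overlap. The antisense gene Gm15261, also on X, had the opposite sign (1.12, SE 0.36) and did not pass. Of 4 tested genes within 1 Mb of G530011O06Rik, 2 had an unadjusted p under 0.05 (limma), Mid1 and Gm15261, and 0 passed.

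Coq6 had overlapping levels in the genotypes. It stood at 3.40, 3.65 and 3.65 log2 CPM in WT and 3.81, 3.41 and 3.53 in D316Y, with a difference of 0.02 (SE 0.16, 95% interval -0.34 to 0.37, limma adjusted p 0.995). Reads per gene do not show which allele was read, so this does not check the genotype. The other genes of coenzyme Q synthesis did not differ at the threshold either: of 15 tested, 8 were positive and 7 negative, 0 passed and 0 had an unadjusted p under 0.05 (limma), and the median was 0.02. The widest was Fdxr, the reductase that feeds electrons to the ferredoxin of the COQ6 reaction, at -0.38 (SE 0.26), and from -0.60 to -0.17 with single libraries left out. Of the 13 quinone-linked dehydrogenases 5 were positive (median -0.07). Of the nuclear subunits, 15 of 36 in complex I were positive (median -0.02), and 16 of 36 in complexes III to V (median -0.01). These medians were -0.26 and -0.27 with the mitochondrial share as a covariate, -0.13 and -0.13 without WT replicate 1, and 0.11 and 0.13 without WT replicate 2. All 12 mitochondrially encoded genes tested were positive, with a median of 0.26 and 0 passing (limma); the median was 0.06 without WT replicate 1, the library with the lowest mitochondrial share. Of 90 tested genes within 10 Mb of Coq6, 4 had an unadjusted p under 0.05, against 6.5% of all genes, and 0 passed.

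Of the receptor, cytokine, chemokine, interferon and effector genes of the LPS response, none passed apart from Ifi208 (limma). At the receptor, Tlr4 had a difference of 0.08 (SE 0.15). Of 23 genes of TLR4 and its adaptors 15 were positive (median 0.08); the adaptor kinase partner Tab1 and the ligase Traf3 stood at 0.32 (SE 0.15) and 0.33 (SE 0.16), with libraries that did not overlap, as in 12.5% of all genes. Of 22 genes of NF-kB and its feedback 11 were positive (median -0.0031). Nfkbia, the inhibitor of NF-kB that NF-kB itself induces, had 0.01 (SE 0.14), and Tnfaip3, the deubiquitinase that ends the signal, 0.33 (SE 0.16), or 0.17 without WT replicate 2.

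**Figure D3:**
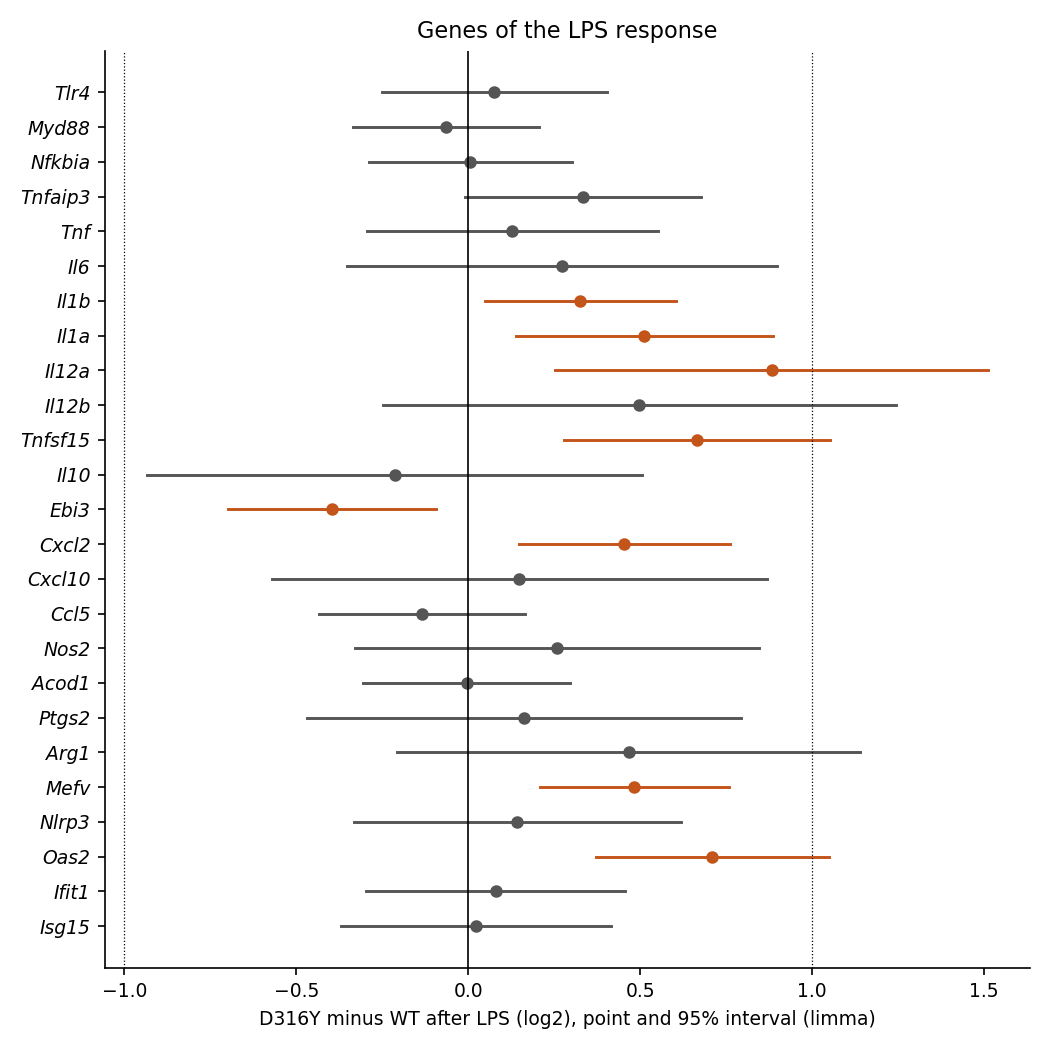
Difference between the genotypes after LPS (D316Y minus WT, log2) for 25 genes of the LPS response; points are limma estimates, bars their 95% intervals, orange where the unadjusted p was under 0.05, and dotted lines mark 2-fold. None passed, and the bars of Tnf, Nos2 and Acod1 include 0 and lie within 2-fold.

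Of 18 inflammatory cytokines tested, 14 were positive and 4 negative (median 0.24), beside 49.2% positive over all genes. At an unadjusted p under 0.05, 4 were higher and 1 lower, beside 3.47% and 3.03% of all genes, and 0 passed (limma). Il12a, the subunit specific to interleukin-12 and interleukin-35, stood at 0.58, 1.36 and 1.73 log2 CPM in WT and 2.33, 2.06 and 1.92 in D316Y, with a difference of 0.88 (95% interval 0.25 to 1.51), or 0.56 without WT replicate 1. Tnfsf15, a ligand of the tumour necrosis factor family, stood at 2.02, 2.08 and 2.12 in WT and 2.72, 2.88 and 2.61 in D316Y (0.67, SE 0.18). Both were among the 3 of 18 with all D316Y libraries above all WT libraries, beside 5.7% of all genes. The interleukin-1 genes, which the inflammasome and calpain process, had 0.33 (SE 0.13) for Il1b and 0.51 (SE 0.17) for Il1a. Il1b read 10.20, 9.88 and 10.05 log2 CPM in WT and 10.40, 10.40 and 10.31 in D316Y. Ebi3, the partner subunit of interleukin-27, went the other way, with 7.54, 7.21 and 7.28 in WT and 6.81, 6.87 and 7.17 in D316Y (-0.40, SE 0.14). Tnf, read 571, 836 and 685 times in WT and 731, 772 and 502 times in D316Y, had 0.13 (95% interval -0.29 to 0.55), and Il6, with 53 to 89 reads in any library, had 0.27 (-0.35 to 0.90). The cytokine median was 0.09 if WT replicate 1 was left out and 0.10 if D316Y replicate 1 was.

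Chemokines and effectors showed no common direction. Of 19 chemokines 10 were positive (median 0.01); Cxcl2, which attracts neutrophils, had 4.72, 4.97 and 4.70 log2 CPM in WT and 5.45, 5.23 and 5.08 in D316Y (0.45, SE 0.14). The interferon-inducible Cxcl10 had 0.15 with a wide interval, from -0.57 to 0.87. Among 16 genes of itaconate, nitric oxide, arginine and prostanoid metabolism 5 were positive (median -0.01). Acod1, which makes itaconate, stood at 10.40, 10.28 and 10.24 log2 CPM in WT and 10.45, 10.39 and 10.06 in D316Y (-0.01, 95% interval -0.30 to 0.29). Nos2, the inducible nitric oxide synthase, had 0.26 (-0.33 to 0.84), in WT between 4.93 and 6.22 and in D316Y between 5.64 and 6.20. The constitutive cyclooxygenase Ptgs1 had -0.69 (SE 0.30; -0.44 without WT replicate 1), and the inducible Ptgs2 0.16 (SE 0.29).

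Interferon-stimulated genes differed little besides Ifi208. Of 45 tested, 32 were positive, beside 49.2% of all genes, and 0 passed (limma). At an unadjusted p under 0.05, 2 were higher, beside 3.47% of all genes, and the median was 0.09. Oas2, an oligoadenylate synthetase that senses double-stranded RNA, stood at 5.50, 5.78 and 6.11 log2 CPM in WT and 6.60, 6.55 and 6.36 in D316Y, with a difference of 0.71 (SE 0.15, limma adjusted p 0.346). Mx2, a dynamin-like GTPase that blocks viruses, had 0.60 (SE 0.25), or 0.31 without WT replicate 1. The median of the list ran from -0.04 without D316Y replicate 2 to 0.24 without D316Y replicate 3. Of 35 genes of this list with an entry, 19 carried the response element core printed above for the Ifi200 genes.

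Inflammasome genes held 4 members with an unadjusted p under 0.05, all upward, of 17 tested (11 positive, median 0.02, 0 passing by limma), beside 3.47% of all genes. Mefv, which encodes pyrin, the sensor of inactivated RhoA, stood at 5.35, 5.34 and 5.57 log2 CPM in WT and 5.96, 6.00 and 5.75 in D316Y (0.48, SE 0.13). Nlrp1b had 0.68 (SE 0.26; 0.44 without WT replicate 2) and Naip5, the sensor of flagellin, 0.35 (SE 0.16); the fourth was Il1b. The D316Y libraries lay wholly above WT in 3 of the 17, beside 5.7% of all genes. Antigen presentation genes were split, 13 positive and 14 negative of 27 (median -0.05).

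**Figure D4:**
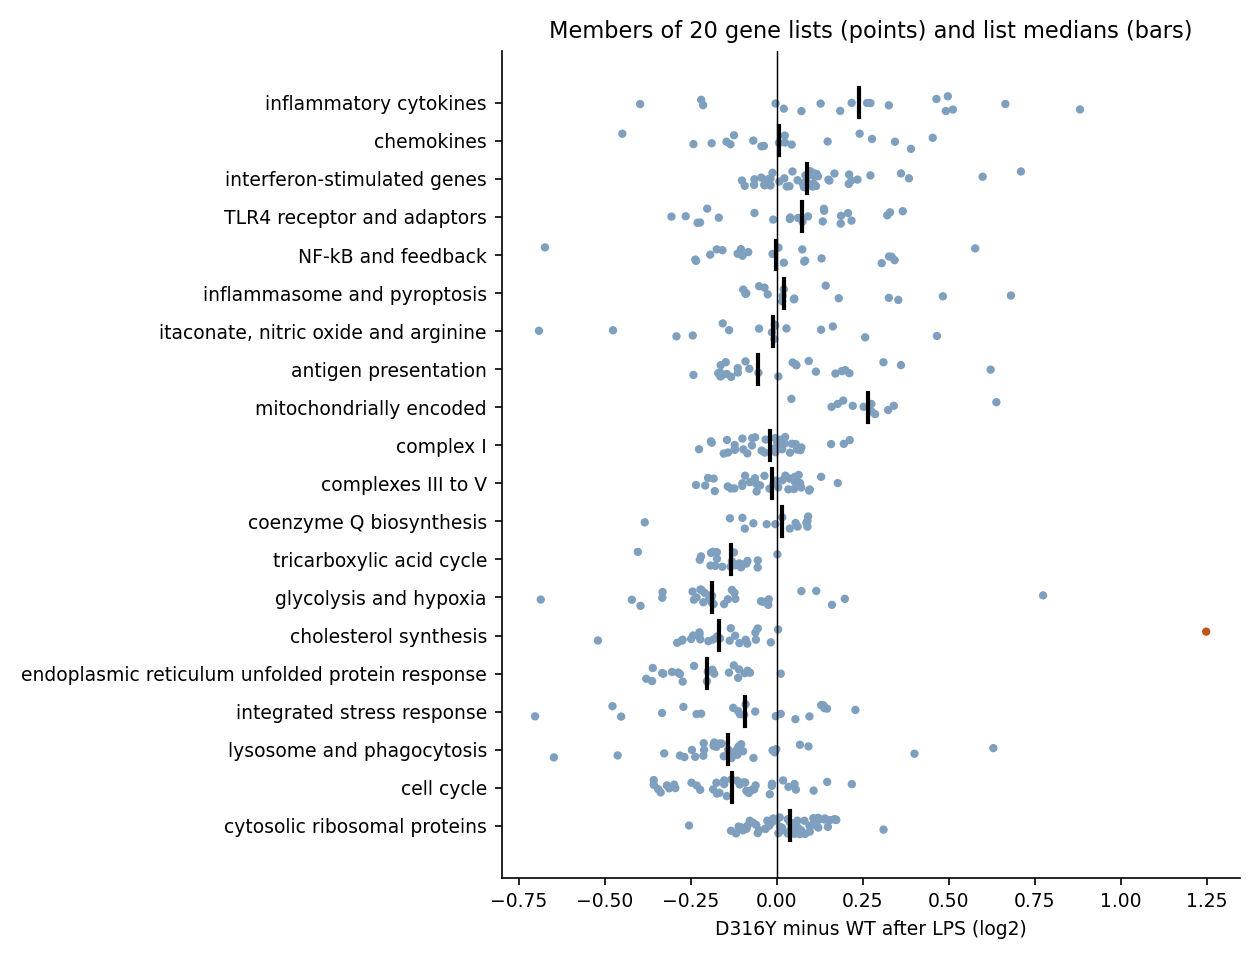
Difference between the genotypes after LPS (D316Y minus WT, log2) for members of 20 gene lists, 1 point per gene, with the list median as a black bar; orange marks Dhcr7, the 1 member of these lists that passed. List medians lie between -0.20 (endoplasmic reticulum unfolded protein response) and 0.26 (mitochondrially encoded), and apart from Dhcr7 at 1.25 the members lie within 0.9 of 0.

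Several lists of metabolism and organelles had more negative than positive members, by small amounts, while 38 of 58 cytosolic ribosomal protein genes were positive (median 0.04). The lists were chosen with earlier results of these data known, and their counts are descriptions beside the 50.8% of all genes with negative differences. Genes of the unfolded protein response of the endoplasmic reticulum were negative in 21 of 22 (median -0.20), 4 with an unadjusted p under 0.05, beside 3.03% of all genes that were lower at that threshold, and 0 passing (limma). These 4 were the chaperones and cofactors Hsp90b1 (-0.36, SE 0.16; -0.19 without WT replicate 1), Dnajb11 (-0.33, SE 0.11), Dnajc3 (-0.30, SE 0.12) and Sdf2l1 (-0.29, SE 0.11). Dnajb11, a cofactor of the chaperone BiP, stood at 6.14, 6.13 and 6.16 log2 CPM in WT and 5.87, 5.88 and 5.69 in D316Y. Sdf2l1 stood at 7.48, 7.54 and 7.62 in WT and 7.24, 7.25 and 7.28 in D316Y. The D316Y libraries lay wholly below WT in 5 of the 22, beside 6.79% of all genes. Dnajb11, Dnajc3 and Sdf2l1 were among them, with a narrow spread within each group. Tricarboxylic acid cycle genes were negative in 21 of 22 (median -0.13, 0 passing and 0 with an unadjusted p under 0.05 by limma). Glycolysis and hypoxia genes were negative in 27 of 32 (median -0.19), with the collagen prolyl hydroxylase P4ha2 at -0.69 (SE 0.30; -0.29 without WT replicate 1) and, in the other direction, the enolase isoform Eno2 at 0.77 (SE 0.19).

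Lysosome and phagocytosis genes were negative in 31 of 35 (median -0.14). Plbd2, a lysosomal phospholipase-like protein, stood at 5.53, 5.24 and 5.58 log2 CPM in WT and 4.81, 4.83 and 4.76 in D316Y (-0.65, SE 0.13), and Lamp1, the main membrane glycoprotein of lysosomes, had -0.46 (SE 0.16; -0.30 without WT replicate 2). Atp6v0d2, a proton pump subunit high in osteoclasts, had 0.63 (SE 0.28; 0.30 without WT replicate 1). Genes of the liver X receptor and fatty acid synthesis were negative in 11 of 16 (median -0.15), with Elovl6, an elongase of palmitate, at -0.74 (SE 0.29; -0.48 without D316Y replicate 1) and Lpcat3, which puts arachidonate into phospholipids, at -0.40 (SE 0.12). Cell cycle genes were negative in 32 of 39 (median -0.13, but -0.04 without D316Y replicate 1 and -0.27 without D316Y replicate 3); the replicative helicase subunits Mcm3 and Mcm6 stood at -0.36 (SE 0.14) and -0.34 (SE 0.15), the latter at -0.22 without D316Y replicate 1. In bulk RNA, fewer cells in cycle and less RNA per cell cannot be told apart. The integrated stress response was negative in 14 of 22 (median -0.09), with Ddit4, an inhibitor of mTORC1, at -0.70 (SE 0.26), and NRF2 and glutathione genes in 16 of 30 (median -0.03). None of the genes in these lists passed.

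WT replicate 1 and the mitochondrial share moved with several of these medians. Without that library the median was 0.01 for glycolysis, -0.05 for the tricarboxylic acid cycle, -0.06 for the liver X receptor list and -0.08 for lysosomes. With the mitochondrial share as a covariate it was 0.16, 0.01, 0.09 and -0.04, and -0.06 for the unfolded protein response. Medians that were negative in every alternative run included those of cholesterol synthesis (-0.24 to -0.09), the unfolded protein response (-0.31 to -0.06) and lysosomes (-0.21 to -0.04). They also included those of the integrated stress response (-0.14 to -0.04) and the cell cycle (-0.27 to -0.04). The same held for macrophage identity genes (-0.21 to -0.03) and the Rab list (-0.13 to -0.06). It held as well for the list of M16 and other proteases (-0.28 to -0.08) and for the 2 T, B and NK cell markers tested (-0.52 to -0.01). The medians of other lists were positive in every alternative run. These were inflammatory cytokines (0.08 to 0.31), the Ifi200 family (0.05 to 0.30) and inflammasome genes (0.0065 to 0.285). Dendritic cell markers (0.20 to 0.41), Y chromosome genes (0.38 to 0.66) and long noncoding RNAs (0.11 to 0.41) were the others.

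Markers of the cells themselves were read beside these results. Macrophage identity genes were negative in 18 of 24 tested (median -0.19), and their summed level was 71620 to 77870 CPM in WT and 61440 to 69440 in D316Y. Most of that sum came from Lyz2, whose libraries overlapped: 15.71, 15.93 and 15.72 log2 CPM in WT, 15.58, 15.49 and 15.73 in D316Y. Marco, a scavenger receptor that LPS induces, stood at 9.07, 8.70 and 8.91 log2 CPM in WT and 8.04, 8.21 and 8.45 in D316Y (-0.66, SE 0.14). Mrc1, the mannose receptor, had -0.76 (SE 0.33; -0.30 without D316Y replicate 1) and Spi1, the lineage factor PU.1, -0.30 (SE 0.12). Against these stood Axl, a receptor for apoptotic cells, with 4.76, 3.71 and 4.88 log2 CPM in WT and 5.23, 5.27 and 5.06 in D316Y (0.73, SE 0.25; 0.36 without WT replicate 2). None of them passed (limma). Of other cells, 9 of 15 neutrophil markers were in the table, with a summed level of 719 to 1028 CPM in WT and 631 to 791 in D316Y, most of it from Lcn2, which macrophages also make after LPS (-0.47, SE 0.19; -0.28 without WT replicate 1). Of the 7 neutrophil markers tested, 4 were positive and 3 negative (median 0.06). The dendritic cell markers (8 of 12 in the table) summed to 45.1 to 63.0 CPM in WT and 59.7 to 66.3 in D316Y, and Ccr7 had 0.47 (SE 0.16). T, B and NK cell markers were in the table for 2 of 15 and summed to 8.56 to 12.6 CPM in WT and 8.24 to 11.4 in D316Y. The part of these cells in the results was not tested.

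All 6 libraries read genes of the Y chromosome. The 4 in the table, Ddx3y, Eif2s3y, Kdm5d and Uty, summed to 56.4 to 69.7 CPM in WT and 81.3 to 87.8 in D316Y. Kdm5d, a histone demethylase, stood at 1.42, 1.08 and 1.54 log2 CPM in WT and 2.14, 1.96 and 2.56 in D316Y (0.88, SE 0.23), Eif2s3y at 0.64 (SE 0.24; 0.31 without WT replicate 1) and Uty at 0.48 (SE 0.20; 0.31 without D316Y replicate 3), while Ddx3y stood at -0.03. None passed.

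**Figure D5:**
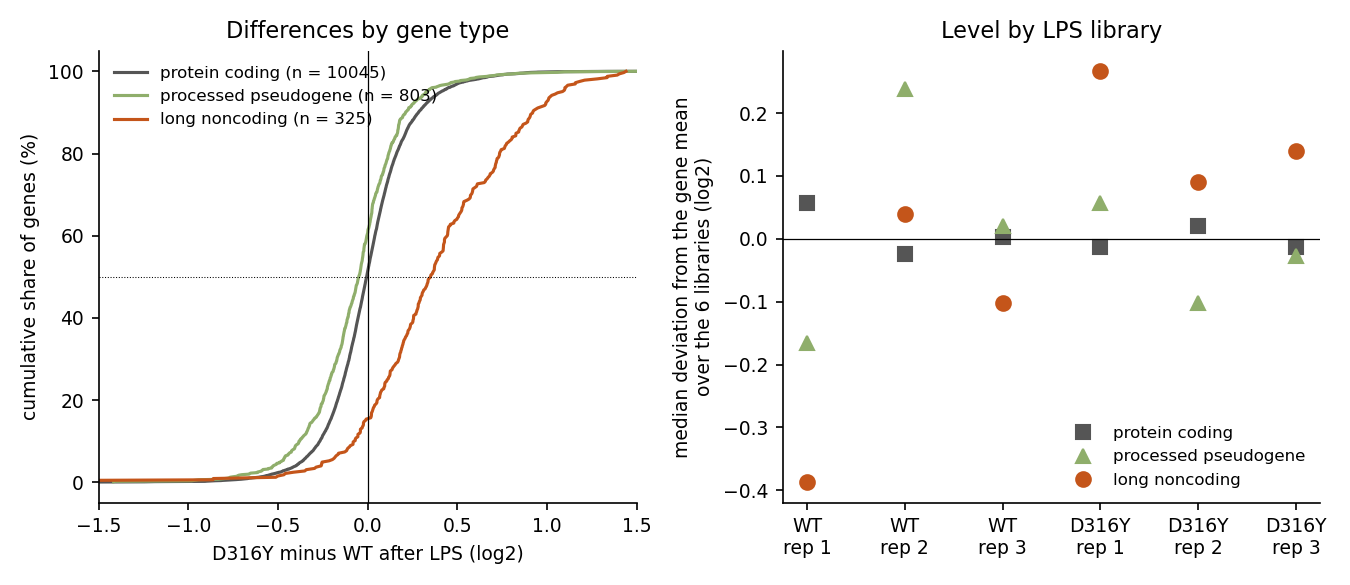
Left, cumulative share of genes (%) by their difference after LPS (D316Y minus WT, log2) for protein-coding genes, processed pseudogenes and long noncoding RNA genes; right, the median deviation of each type from the gene means in each of the 6 libraries (log2). The long noncoding curve lies to the right of the others, and its median is highest in D316Y replicate 1 (0.27) and lowest in WT replicate 1 (-0.39).

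Long noncoding RNA genes stood apart from other gene types, a split that was made after the values were seen. Of 325 tested, 275 (84.6%) were positive, with a median of 0.35, against 48.7% of 10045 protein-coding genes and 39.4% of 803 processed pseudogenes. At an unadjusted p under 0.05, 69 were higher and 4 lower in D316Y; they made up 17.6% of the genes higher at that threshold, 1.17% of those lower and 2.88% of all genes tested. The 1 that passed was G530011O06Rik, which was lower. By library the median deviation was -0.39, 0.04 and -0.10 for WT replicates 1, 2 and 3, against 0.27, 0.09 and 0.14 for the D316Y replicates. All D316Y libraries were thus above all WT libraries, though WT replicate 2 was close. Among the 64 whose mean reached 3 log2 CPM, 53 were positive (median 0.22). The median was 0.20 without WT replicate 1 and 0.11 with the mitochondrial share as a covariate. At rest, in the other 6 libraries, which carry the same replicate numbers and may come from the same animals or cultures, 224 of 274 were positive (median 0.32).

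Several of these are known nuclear RNAs. Malat1, a scaffold of nuclear speckles, was read 66123, 131597 and 79281 times in WT, against 140330, 120977 and 104324 times (0.65, SE 0.24; 0.40 without WT replicate 1 and 0.99 without WT replicate 2). Neat1, the scaffold of paraspeckles, stood at 4.93, 5.82 and 5.29 log2 CPM in WT and 6.15, 6.41 and 6.04 in D316Y (0.86, SE 0.20). Mir155hg, the precursor of the inflammatory microRNA miR-155, was read 40, 71 and 72 times in WT and 151, 147 and 69 times in D316Y (1.16, SE 0.34). Gdap10 stood at 1.01 (SE 0.26). The D316Y libraries lay wholly above WT in 68 of the 325 long noncoding genes, beside 5.7% of all genes. Neat1, Mir155hg and Gdap10 were among the 68, and the rule that named Mir155hg and Gdap10 required it. None of Malat1, Neat1, Mir155hg and Gdap10 passed. Genes higher in D316Y at an unadjusted p under 0.05 had longer exonic sequence (median 5030 bases) and lower GC content of the longest transcript (46.96%) than those lower (3539 bases and 52.07%); over all genes these were 4126 bases and 49.31%.

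Among protein-coding genes that did not pass, limited to those averaging 1 log2 CPM or more in a genotype, with an unadjusted p under 0.05, no overlap and no predicted or clone name, the largest positive differences were those of Napb, a factor of vesicle fusion (1.21, SE 0.30), and Selenbp2 (1.21, SE 0.27). Napb was read 36, 63 and 66 times in WT against 100, 123 and 101 times, and Selenbp2 71, 49 and 50 against 87, 132 and 125. Ankrd23 (1.00), Prkdc, the catalytic subunit of DNA-dependent protein kinase (0.98), Rgs11 (0.95), Degs2, a sphingolipid desaturase (0.91), and Apol7c (0.89) followed. In the same set Cnbd2 had the largest negative one, read 182, 109 and 140 times in WT against 51, 55 and 33 times (-1.43, SE 0.26, limma adjusted p 0.212). Kbtbd3 had 167, 330 and 177 reads against 72, 100 and 61 (-1.29, SE 0.30). Cd59a, a brake on complement, stood at -0.89 (SE 0.23). Cd5l, a secreted protein of macrophages that guards them from apoptosis (-0.91; -0.56 without WT replicate 2), Ddah2 (-0.91), Fam122a (-0.97), the repressor E2f6 (-0.90), the desaturase Fads3 (-0.90; -0.56 without WT replicate 3) and the gelatinase Mmp9 (-0.83; -0.55 without D316Y replicate 1) were among the others. In every one the D316Y libraries lay on one side of all WT libraries, by the rule that chose them.

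The number of genes that passed turned on single libraries of either genotype. It was 3, 4 and 3 without D316Y replicates 1, 2 and 3, and stayed at 5 without WT replicate 1. Without WT replicate 2, 22 genes passed, 16 higher and 6 lower, of which 4 were among the 5 above. The 18 added included Zfp263 (0.78), Pnisr (0.75), Fnbp4 (0.73), Zc3h7a (0.71), the elongation factor subunit Ccnt2 (0.69) and the splicing kinase Clk1 (0.59), as well as Neat1 and Malat1, on the positive side, and the G protein subunit Gnai2 (-0.68), Marco, Plbd2 and Cnbd2 on the negative, here with their values from all 6 libraries. Pnisr and Clk1 take part in splicing; Clk1 stood at 4.83, 5.48 and 5.13 log2 CPM in WT and 5.75, 5.82 and 5.65 in D316Y. Without WT replicate 3, by contrast, 2 genes passed, Ifi208 and Ide.

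The genes that passed after LPS had values of the same sign at rest: 3.66 for Ifi208, 1.42 for Dhcr7, -1.60 for Ide, -2.22 for Rab4a and -2.50 for G530011O06Rik, from the other 6 libraries, which may share animals or cultures with these. Rab4a alone passed there. A test of whether the genotype difference after LPS departs from that at rest called 0 of 11918 genes (limma; 251 at an unadjusted p under 0.05). The interaction was 1.14 for Ifi208 (SE 0.58, limma adjusted p 0.999), -0.17 for Dhcr7, -0.03 for Ide, -0.57 for Rab4a and 0.06 for G530011O06Rik. Of the 392 genes higher after LPS at an unadjusted p under 0.05, 367 were tested at rest and 306 had a positive difference there; of the 343 lower, 319 were tested and 280 had a negative one. Over all genes tested in both states 4951 were positive at rest and 5962 negative.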

How the data were processed

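Per the file headers, the authors deposited a table of 12493 entries that gives log2 CPM for 12 libraries. Per the submitters' processing notes STAR 2.5.1a, bcl2fastq, limma, edgeR, featureCounts 1.4.6-p5 and Subread were used; their roles, the build and the annotation are not stated there. After 52 repeated identifiers were taken once, 12441 genes remained, all found in GENCODE M21 (GRCm38), and 15 symbols turned into dates were restored. Reads were recovered as whole numbers, with 0.5 read added before the log2: below 200 reads, 100% of the values were whole to within 0.01. Reads carry no molecular identifiers, so counts of reads show counting error only.

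The 6 LPS libraries were compared with limma 3.58.1 in R 4.3.3 (linear model, eBayes with trend and robust, two-sided, Benjamini-Hochberg over 11306 genes, threshold 0.05); an exact permutation test of 3 against 3 cannot go below 0.1. The interaction came from all 12 libraries, taken as independent. Lists (34) are described by counts and medians only. Genes named were Coq6, those that passed, the 12 largest differences per direction among genes with an unadjusted p under 0.05, a mean of at least 1 log2 CPM and no overlap, up to 3 members per list and those that passed without WT replicate 2; a selection is printed, and some are not reported here. Coenzyme Q, Rab and Ifi200 relatives, neighbours, Y-linked genes and some list members were named outside this rule, with values known. The members and lists were chosen with earlier results of these data known. Alternatives changed the filter, the moderation, the libraries in the fit, the weights (voom), the scaling, the replicate block and the mitochondrial covariate, and left out each library. The script was tested on simulated data. RefSeq promoters (GRCm38.p6) cover the 250 bases before each start.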

Additional observations from a re-analysis of the deposited data

How the results depend on the processing

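Ifi208 passed in every alternative run. Ide passed in all but eBayes without trend and robust. The number of genes higher, 2, was 1 with that moderation and 1 with all 12 libraries in a 4-group fit, and ran from 1 to 16 with single libraries left out; the number lower, 3, was 0 with that moderation and ran from 1 to 6. Genes with an unadjusted p under 0.05 numbered 735, 1694 with the mitochondrial share as a covariate, and 414 to 1660 with single libraries left out. Of the 128 genes named by rule, 0 passed the interaction test in any of its 4 alternatives; other genes were not counted there. The causes were not tested.

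Replicate numbers did not pair the WT and D316Y libraries after LPS: same-numbered libraries correlated at -0.159, 0.0940 and -0.0189 in their deviations from the group means. Whether resting and LPS libraries of the same number are paired within a genotype was not tested. With the replicate block, 3 genes were higher and 3 lower, adding Gdap10, and 700 had an unadjusted p under 0.05.

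Small differences of genes that did not pass changed sign in some settings. With the mitochondrial share as a covariate the difference was -0.13 for Coq6, -0.19 for Tnf, -0.0353 for Il6, 0.0693 for Acod1, -0.24 for Cxcl10 and -0.13 for Nfkbia; Acod1 was 0.0376 with quantile normalization and Nfkbia -0.0089 with median centring. With single libraries left out the difference ran from -0.10 to 0.10 for Coq6, -0.0483 to 0.32 for Tnf, -0.12 to 0.52 for Nos2, -0.0783 to 0.11 for Acod1, -0.0446 to 0.43 for Ptgs2, -0.13 to 0.57 for Cxcl10, -0.0342 to 0.20 for Tlr4, -0.10 to 0.0816 for Nfkbia and -0.13 to 0.0591 for Rab4b. Depth limits genes under 2 log2 CPM most, where the median SE was 0.29. The list of fibroblast markers had no member above the stricter filter and gives no value there.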
